A study of Mus musculus with 7 samples.

Results

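The regions described here are 21094 stretches of open chromatin that were found in mouse small intestine epithelium at embryonic day 16 (E16) and in none of the other 6 libraries of the study. ATAC-seq marks open chromatin by letting a transposase cut DNA that is not packed away, and the authors deposited, for each of 7 libraries, a list of peaks with chromosome, start and end. Overlapping peaks of the 7 lists on the 19 autosomes and X (an overlap of 1 bp or more) were merged into 326695 regions. A member is a region with a peak in E16 small intestine and in no other list. Members were 6.46% of all regions and 22.3% (95% Wilson interval 22.1 to 22.6) of the 94418 regions of E16 small intestine. They were also 11.7% of the 180630 regions that any single library held alone. Members were thus chosen by the measured peaks themselves, so their presence in 1 library and absence from the others is a description and was not tested.

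Each group was 1 library. At E13 these were intestine and stomach, and at E16 small intestine, colon, hindstomach, forestomach and the stomach of a Sox2 knockout (Sox2 KO). Per the labels the embryos carried ShhCre and R26YFP/+, a yellow fluorescent reporter switched on where Shh, an epithelial signal, has been expressed. At E13 the organs of several embryos were digested with trypsin and the cells sorted. At E16 epithelium was freed from the proximal small intestine, colon and hindstomach with EDTA and from the forestomach with dispase, peeling and collagenase. The labels name the library "E16 intestine", and the protocol names its proximal small part. For the Sox2 KO library the sources used here do not give the alleles, the stomach part or the isolation. With no replicates there is no spread between samples and no test. All intervals are 95% Wilson intervals and reflect counting error alone. The files hold positions and no reads, so depth is unknown.

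The proximal small intestine absorbs fat, sugar, amino acids and minerals through enterocytes, whose brush border carries digestive enzymes and transporters. Enterocyte genes are known to be controlled by CDX, GATA and HNF4 transcription factors, acting at promoters and at distant enhancers. Enhancers are more tissue-restricted than promoters as a rule, and fetal enterocytes start to build fat-handling and transport proteins before birth.

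Sequence is shown first for members that lay on promoters of listed genes, most of them of intestinal absorption. There a single peak, a start site and the letters beneath can be read together. Each stretch is the part of the member within 250 bases before a start site, from RefSeq on GRCm38.p6, written 5′ to 3′ on the strand of the gene. Capitals mark matches, on either strand, to TTTATNG of the CDX factors, AGATAA of the GATA family or CAAAGTCCA of HNF4. A match describes letters and is not a measured binding site. Only these exact letters were marked, so a stretch without a match can still hold other forms of the sites. Of 13 such stretches at listed genes 3 held at least 1 of these motifs (those of Slc3a1, Abcg5 and Abcg8) and 10 held none. Each start site counts once, so the member shared by Abcg5 and Abcg8 and that of Slc7a9 count 2 times each. Nr1i3, a nuclear receptor gene, and S100b, a neural marker, are among the 10. Those printed are 2 with and 2 without. The edges could be off by 1 base, since the files do not state whether positions count from 0 or 1. The nearest peak of another library lay 204 bp from the member of Abcg5 and Abcg8 and 580 bp from that of Slc3a1. For Abcc2 it was 4208 bp and for Slc26a3 6057 bp. Slc3a1 makes a subunit of the carrier for cystine and dibasic amino acids. Its member holds all 3 motifs at chr17:85028180-85028335 on the plus strand.
Slc3a1: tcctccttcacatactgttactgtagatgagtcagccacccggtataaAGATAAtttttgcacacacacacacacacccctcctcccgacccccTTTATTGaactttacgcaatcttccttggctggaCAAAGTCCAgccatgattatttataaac
Abcg5 and Abcg8 make the 2 subunits of a sterol exporter and start in opposite directions. One member of 87 bp covered most of the space between the start site of Abcg5 and an internal start site of Abcg8. It is at chr17:84683039-84683125, shown on the minus strand, that of Abcg5.
Abcg5: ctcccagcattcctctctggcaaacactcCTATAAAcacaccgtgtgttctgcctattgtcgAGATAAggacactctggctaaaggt
Slc26a3 makes a chloride and bicarbonate exchanger of the intestinal surface. Its member lay inside the gene, 107 bases before an internal start site, and the stretch at chr12:31437969-31438112 on the plus strand holds none of the 3 motifs.
Slc26a3: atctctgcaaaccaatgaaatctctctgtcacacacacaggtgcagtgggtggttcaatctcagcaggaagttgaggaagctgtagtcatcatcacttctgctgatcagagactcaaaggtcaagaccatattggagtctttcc
Abcc2, from the list of xenobiotic and bile genes, makes an export pump for conjugated bile pigment and drugs. The stretch at chr19:43782058-43782266 on the plus strand holds none of the 3 either.
Abcc2: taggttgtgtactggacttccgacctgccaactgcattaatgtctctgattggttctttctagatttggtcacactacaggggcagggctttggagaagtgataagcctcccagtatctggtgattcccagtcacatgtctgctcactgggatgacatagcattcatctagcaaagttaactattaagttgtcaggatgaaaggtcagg

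E16 small intestine had 97568 peaks, inside the range of 81179 to 135743 over the 7 lists. The other libraries had between 12000 (forestomach) and 55287 (colon) regions of their own, with 29122 in Sox2 KO stomach, 24754 in E13 stomach, 21446 in E13 intestine and 16927 in hindstomach. The share of a library's regions that it held alone ran from 14.1% to 41.5%, with E16 small intestine between. Genes that define intestinal epithelium had peaks in the library: within 1 kb of either gene end, 5 of 5 epithelial markers, 5 of 8 enterocyte markers and 4 of 4 intestinal regulators (Cdx1, Cdx2, Hnf4a and Isx) had one. These counts set the library little apart. All 7 libraries had 5 of 5 epithelial markers. The others had 2 to 4 enterocyte markers and 2 to 4 of the regulators, with all 4 in Sox2 KO stomach. By the same measure 3 of 5 mesenchyme, 1 of 4 blood and immune, 1 of 3 endothelium and 2 of 4 neural markers had a peak in E16 small intestine. On promoters, from 250 bases before to 50 after a start site, 3 of 8 enterocyte markers (Vil1, Apoa1 and Sis) had a peak in E16 small intestine. So did 2 of 3 epithelial markers with a listed promoter (Krt8 and Krt18, but not Epcam). Of 3 such intestinal regulators 2 had one (Cdx2 and Hnf4a, but not Isx). None of the 3 mesenchyme, 2 blood and immune and 1 endothelium markers with a listed promoter had one there, while the 1 neural marker with a listed promoter, Elavl4, did. The part of other cell types in the members was not tested.

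Among the regions of E16 small intestine, members were the most frequent class by number of sharing libraries. Regions with a peak in 1 other library numbered 16975 and those with a peak in all 6 others 14573 (15.4%). Where exactly 1 other library shared the region, it was colon in 11817 cases, hindstomach in 1954, forestomach in 1026, E13 intestine in 901, Sox2 KO stomach in 746 and E13 stomach in 531. The colon list thus decided more of the membership than any other: with that list left out, 33382 regions counted as members. The colon list was also the longest. Leaving out any other single list gave a count within 1.5 times that of the members.

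**Figure D1:**
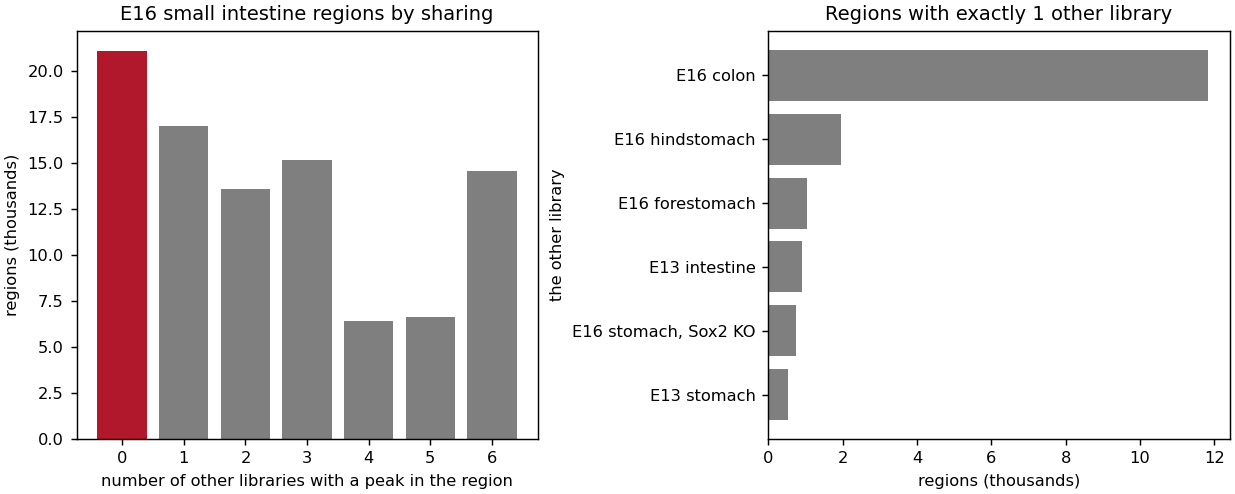
Regions of E16 small intestine by the number of other libraries with a peak there (left) and, for regions with exactly 1 other library, which library it was (right). The red bar marks the 21094 members; colon was the other library in 11817 of 16975 regions shared with 1.

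Members were narrow. Their median width was 97 bp (quartiles 87 and 127, widest 747 bp), and 35.5% had the smallest width in the list, 87 bp. The other peaks of E16 small intestine had a median of 144 bp (quartiles 103 and 227), and 11.1% had the smallest width. Only 1176 members (5.58%, 5.27 to 5.89) were 200 bp or wider, against 31.0% (30.7 to 31.4) of the other peaks. The share of peaks that were members went down from 46.9% at 87 bp through 20.7% at 110 to 149 bp and 7.43% at 200 to 299 bp to 1.62% (1.41 to 1.87) from 300 bp on. Narrow single-library regions were seen in all lists, whose own regions had median widths from 71 to 120 bp. The smallest width of a list differed too, from 62 to 108 bp, so widths are best read within 1 list. Since a peak's width is the only sign of strength in these files, whether the narrow members are weak signal was not tested.

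**Figure D2:**
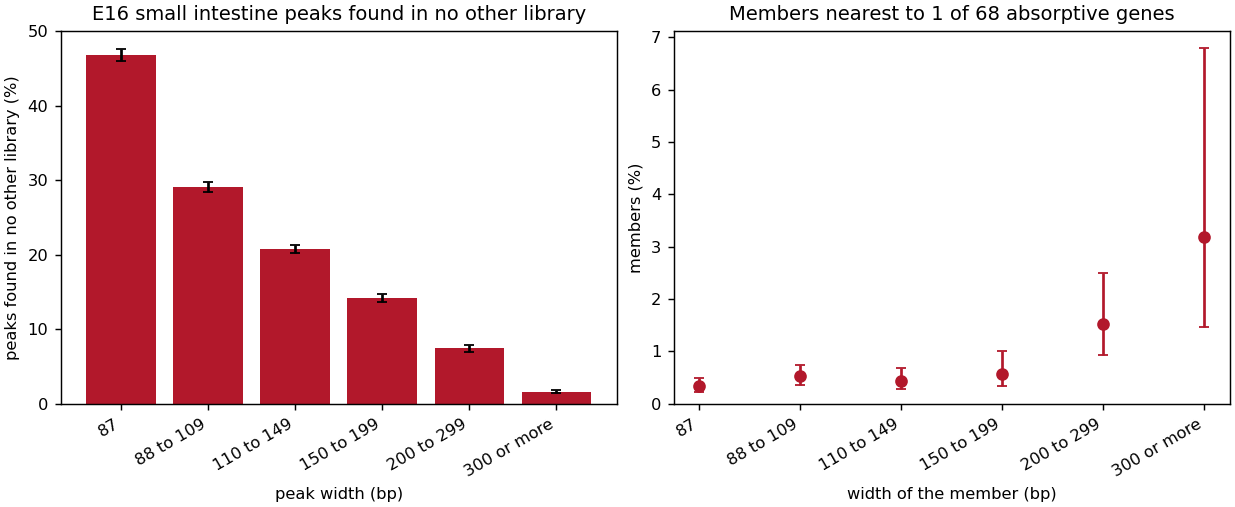
Share of E16 small intestine peaks that are members by peak width in bp (left, bars) and share of members assigned to 1 of 68 absorptive genes by width (right, points), with 95% Wilson intervals. Membership went down from 46.9% at 87 bp to 1.62% from 300 bp on, whereas the share at absorptive genes was 0.334% at 87 bp and 3.19% from 300 bp on.

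Members lay apart from the peaks of other libraries by a median of 2274 bp (quartiles 752 and 5310). For 642 members a peak of another library lay within 50 bp, 15 of them touching without overlap, and for 4004 (18.98%) it lay within 500 bp. On the other side of the rule, 2024 peaks of E16 small intestine were kept out by an overlap of 50 bp or less. Their median width was 95 bp, and that of the 642 members was 103.5 bp. The nearest outside peak belonged to colon for 31.6% of members. A shared peak of E16 small intestine lay within 10 kb of 46.2% of members.

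Members were seldom near gene starts. A gene end is here the span within 1 kb of the first or last base of a protein-coding gene, and 850 members lay there, 4.03% (3.77 to 4.30), against 16.6% (16.4 to 16.9) of the other E16 small intestine regions. A further 41.3% were inside gene bodies, 34.2% were within 100 kb of one, and 20.4% had none within 100 kb. Regions of 1 other library alone were also rare there for most libraries. The share was 2.56% (2.43 to 2.69) in colon, 3.72% (3.47 to 3.98) in E13 intestine and 5.34% (5.01 to 5.69) in hindstomach. It was 3.87% in E13 stomach and 4.21% in forestomach. Sox2 KO stomach was higher, with 8.29% (7.98 to 8.61), near the 8.32% of all regions. Within 1 kb of a start site lay 2.49% of members and 14.3% of the other regions, and the median distances to the nearest start site were 59.6 kb and 41.8 kb. Gene-end position went with width: it was 3.35% of members at 87 bp and 9.04% (5.72 to 14.0) of those from 300 bp on. By chromosome, members were between 20.7% (chromosome 17) and 24.1% (chromosome 14) of the autosomal regions of E16 small intestine, and 26.4% (24.7 to 28.1) of those on X.

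Regions were assigned to the closest protein-coding gene, up to 100 kb from its body, which placed 16788 members (79.6%) at 8652 of 21627 genes, a background of 40% of genes with at least 1 member. For the genes of nutrient absorption, joined from lists of enterocyte lipid, brush border, and nutrient and ion transport genes, 48 of 68 had a member (70.6%), with 108 members in all and a median of 1 per gene, where the median over all genes was 0. These genes are longer than most, with a median length of 29.4 kb against 17.3 kb. Their lists were chosen with earlier results of these data known. A measure less bound to length is the share of single-library regions at these genes that were members: it was 23.0% (19.4 to 27.0) at absorptive genes and 11.9% (11.71 to 12.05) at all genes. Of all regions of E16 small intestine at absorptive genes, 31.5% (26.8 to 36.6) were members, against 21.5% at all genes. At a gene end 11 of the 68 genes had a member (16.2%), with a background of 3.8%. In the other libraries, regions held alone were found at 47 of the 68 genes for colon (background 59.2%), 38 for Sox2 KO stomach (45.7%), 24 for E13 stomach (39.2%), 21 for hindstomach (35.9%), 21 for E13 intestine (36.2%) and 18 for forestomach (28.3%). In number colon had the most, 123 regions, but this was 0.222% of its 55287, while the 108 were 0.512% (0.424 to 0.618) of the members.

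Wide members stood at absorptive genes more often than narrow ones. A member of 200 bp or more was found at 16 of the 68 genes (23.5%), against a background of 4.31%. Of the 1176 wide members 21 were assigned to absorptive genes, 1.79% (1.17 to 2.71). Of equally wide regions held by 1 other library alone, the share was 0.245% in colon (9 of 3679), 0.384% in hindstomach (3 of 781), 0.226% in E13 stomach (4 of 1771), 0.149% in forestomach (2 of 1345) and 0.231% in Sox2 KO stomach (8 of 3464). E13 intestine had 0 of 445, which allows a share of up to 0.674% (3 counts). The limit of 200 bp was chosen after the widths had been seen. Lists differ in their smallest width, and the part of this in the shares was not tested.

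**Figure D3:**
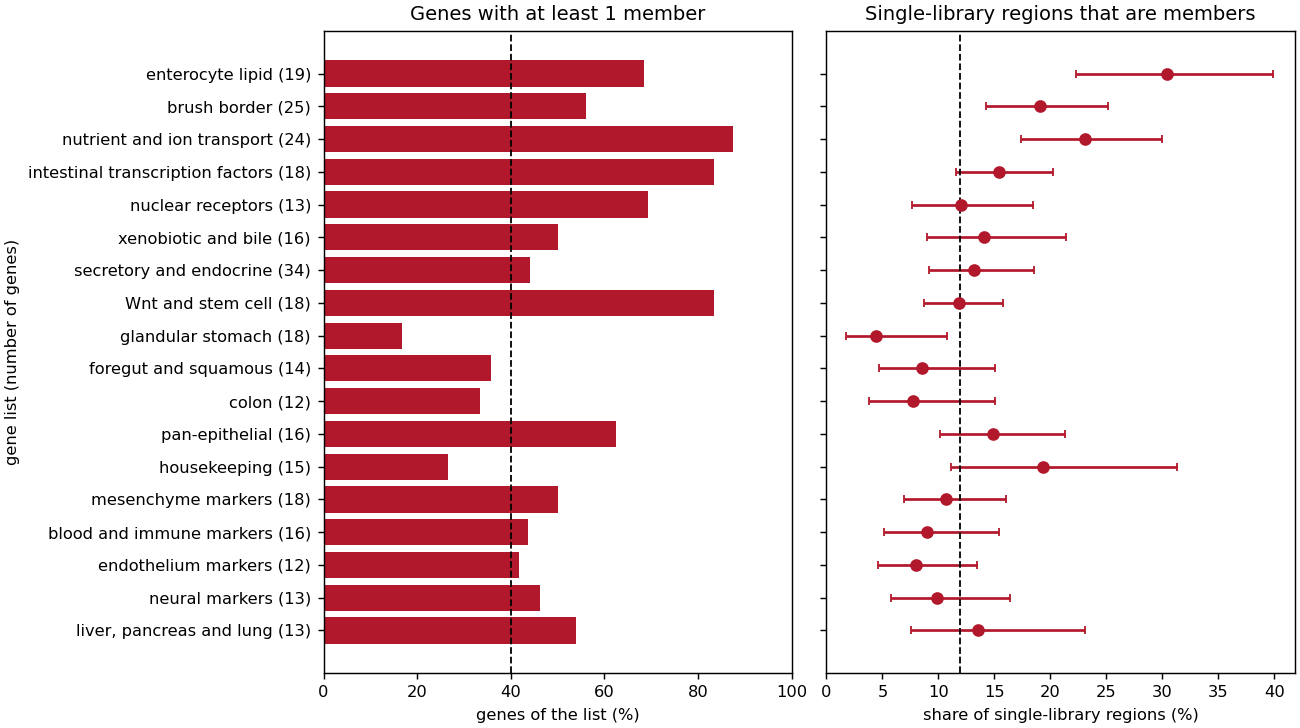
Left, percent of genes in each of 18 lists with at least 1 member; right, percent of single-library regions at these genes that are members, with 95% Wilson intervals. Dashed lines are the values over all protein-coding genes (40.0% and 11.9%); lipid (30.4%) and transport genes (23.1%) lie to the right of the line and glandular stomach genes (4.40%) to the left.

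Genes of fat handling held 9 of the wide members. Of 19 enterocyte lipid genes 13 had a member (68.4%, against 40.0% of all genes), with 31 members. Of the single-library regions at these genes 30.4% (22.3 to 39.9) were members. Mttp, which loads fat onto apolipoprotein B, had 9 assigned regions in E16 small intestine, 5 in colon, 5 in hindstomach, 2 in Sox2 KO stomach, 2 in E13 stomach, 1 in forestomach and 0 in E13 intestine. Of the 9, 5 were members, where no other library held more than 1 region alone. Of these 5, 3 were wide: 247 bp centred 9.79 kb past the start site, 296 bp at 21.7 kb, and 202 bp that lay 350 bp beyond the end of the gene. All 7 libraries had a peak at the start of Mttp; that region was not assigned to Mttp and is not in these counts. The members lay in the gene body and past its end.

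Apob, whose protein is the scaffold of chylomicrons, had 8 members of 15 regions in E16 small intestine, where colon held 5 and Sox2 KO stomach 6 alone. Its widest member, of 237 bp, lay 58417 bp before the gene, with an 87 bp member close by, and 2 members were inside it. Apoa4, an apolipoprotein of chylomicrons, had 3 members close together, of 151, 237 and 108 bp, which ran across the end of the gene and beyond it. Sox2 KO stomach was the only other library with a region of its own there, and it had 1. At Apoa1, a neighbouring apolipoprotein gene, E16 small intestine had 2 regions and no member. Plin2, the coat protein of lipid droplets, had members of 250 and 275 bp in its gene body and 1 of 95 bp outside, beside 5 regions of hindstomach alone and 4 of Sox2 KO stomach. Acsl5, which activates fatty acids, had 1 member of 341 bp that ended 3497 bp before its start. Npc1l1, the cholesterol importer, had 2 regions in E16 small intestine and both were members, 1 of them on its start site. Fabp1 had no region in E16 small intestine.

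Transport genes had a member more often than any other list, 21 of 24 (87.5%, against 40.0% of all genes), with 39 members of which 10 were wide. Colon was close by this count: it held 49 regions alone, at 20 of the 24 genes (83.3%, against 59.2% of all genes). Slc2a2, the facilitative glucose and fructose carrier, had 7 regions in E16 small intestine, and its 2 members were 263 bp, 7.90 kb inside the gene, and 218 bp, 12052 bp past its end. Colon held 3 regions at this gene alone. Slc5a1, the sodium-coupled glucose carrier, had 3 members, a neighbouring pair of 160 and 201 bp whose ends lay 27436 and 27025 bp before the gene, and 1 of 241 bp that ended 12553 bp before it. Colon had 10 regions at Slc5a1, 6 of them alone. Slc6a19, the carrier of neutral amino acids, had 2 members of 4 regions in E16 small intestine: 91 bp on the start site and 474 bp centred 0.97 kb inside. The gap to the nearest peak of another library was 1089 bp for the wider one and 398 bp for the one on the start site. Slc34a2, a phosphate carrier, had 4 members and Slc26a3 had 3, including the 325 bp member at its internal start site, 4.81 kb past the outer one. Slc13a1, a sulfate carrier, had 1 member of 351 bp, Slc11a2, the iron importer, 1 of 306 bp among its 2, and Slc9a3, a sodium and proton exchanger, 1 of 269 bp among its 2. The 3 genes of the list without a member were S100g, Slc26a6 and Slc46a1.

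**Figure D4:**
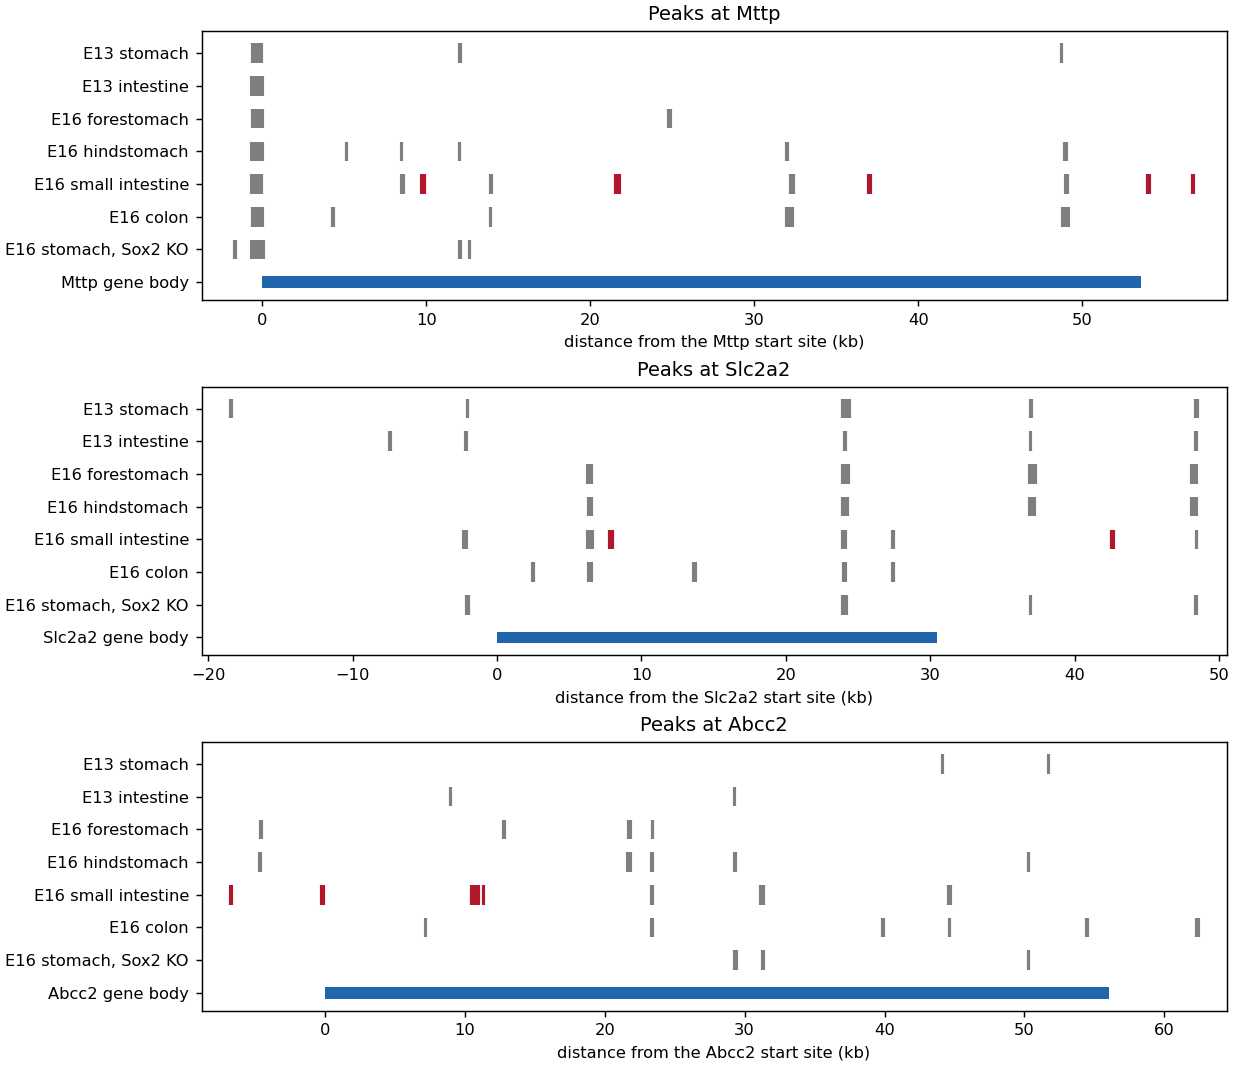
Peaks of the 7 libraries at Mttp, Slc2a2 and Abcc2 by distance from the start site of the gene in kb (x axis), with 1 row per library and the gene body below in blue. Members are red and other peaks grey, each outlined so that narrow peaks stay visible; all 7 libraries have a peak at the start of Mttp, and at the start of Abcc2 E16 small intestine alone has one.

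Brush border genes had less. Of 25 genes 14 had a member (56.0%, against 40.0% of all genes), and 19.1% (14.2 to 25.1) of the single-library regions there were members. Only 2 genes had a wide one (8%, against 4.31% of all genes). Mgam, which digests starch, had 6 members of 16 regions, none wider than 158 bp. Cubn, the vitamin B12 receptor, and the peptidase gene Dpp4 had 5 each, and so did Eps8, an actin regulator of microvilli. Eps8 had more regions of its own in colon (7), Sox2 KO stomach (8) and hindstomach (6). Sis, which digests sucrose, had 3 members among 4 regions, 1 on its start site 8855 bp from the nearest peak of another library. Colon had 6 regions at Sis, 3 of them alone. Myo7b, a microvillar myosin, had the widest brush border member at 380 bp. Lct, Alpi and Anpep, defining enzymes of this surface, had 0 members, and Alpi had 0 regions of any kind in E16 small intestine.

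Regulators of the intestine had members often but not in excess. Of 18 intestinal transcription factor genes 15 had a member (83.3%, against 40.0% of all genes). At these genes fell 41 members, where colon alone had 82 regions. The share of single-library regions, 15.4% (11.6 to 20.2), had an interval that held the value over all genes. None of these genes had more members than every other library had regions of its own, against a background of 4.85%. A wide member was at 1 of them (5.56%, against 4.31% of all genes), Isx (232 bp), a regulator of carotene uptake. Tcf7l2, the effector of Wnt signals, had 8 members and colon 12 regions alone. Cdx2, the master regulator of intestinal identity, had 4 regions in E16 small intestine and 0 members. Its relative Cdx1 had 2 members, of 192 and 101 bp, that lay 646 and 375 bp beyond one end of the gene, and 2 regions of Sox2 KO stomach alone. Gata4, a factor of the proximal intestine, had none, and Hnf4a and Hnf4g had 2 and 3. Among 13 nuclear receptor genes 9 had a member (69.2%, against 40.0% of all genes). Nr1i3, a sensor of foreign compounds, had 2 regions in all, 1 of 146 bp across its start and 1 of 104 bp inside the gene, and both were members: no other library had a region there. Nr1h4, the bile acid receptor, had 11 regions in E16 small intestine and 0 members.

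In xenobiotic and bile genes, 8 of 16 had a member (50%, against 40.0% of all genes). Abcc2 had 4, among them 593 bp at 10.7 kb inside the gene, the fourth widest of all members, and the 250 bp member on the promoter printed above. Its gene body held 2 regions shared with colon, and 3 regions were of colon alone. Cyp3a11, a drug-metabolising enzyme, had 3 regions in E16 small intestine, all members, 1 of them 972 bp inside one end of the gene. Among 34 secretory and endocrine genes 15 had a member (44.1%), near the 40.0% of all genes. Gfi1, which acts in secretory cell fate, had members of 201 and 212 bp in its short gene body. A colon peak lay 29 bp from the first of these. Of 18 Wnt and stem cell genes 15 had a member (83.3%, against 40.0% of all genes). However, their 38 members were 11.8% of the single-library regions, near the value over all genes, and colon had 90.

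Lists of other tissues and cell types had members as well, in varied shares. Of 18 glandular stomach genes 3 had a member (16.7%, against 40.0% of all genes). The 4 members in all were 4.40% (1.72 to 10.8) of the single-library regions at these genes. They were at Muc5ac (2), Capn9 and Cldn18. Foregut and squamous genes had a member in 5 of 14 (35.7%) and colon genes in 4 of 12 (33.3%), against 40.0% of all genes. For pan-epithelial genes it was 10 of 16 (62.5%) and for housekeeping genes 4 of 15 (26.7%). At housekeeping genes members were 19.3% (11.1 to 31.3) of the single-library regions, a share like that of brush border genes. At a gene end, 2 of 15 housekeeping genes (13.3%) and 2 of 13 genes of liver, pancreas and lung (15.4%) had a member, close to the 16.2% of absorptive genes. Sox2, the foregut regulator deleted in the KO, had 1 member of 131 bp, beside 9 regions of colon alone and 5 of Sox2 KO stomach alone. Among the colon genes, Hoxa13, a gene of the hindgut end, had 2 members. Marker genes of other cells had a member about as often as all genes (40.0%) or somewhat more. The counts were 9 of 18 for mesenchyme (50%), 7 of 16 for blood and immune cells (43.8%) and 5 of 12 for endothelium (41.7%). For neural cells it was 6 of 13 (46.2%) and for liver, pancreas and lung 7 of 13 (53.8%). In the same order, members were 10.7%, 9.02%, 8%, 9.84% and 13.5% of the single-library regions, and each interval held the value over all genes. Of the E16 small intestine regions at genes of liver, pancreas and lung, 31.3% (18.0 to 48.6) were members, as at absorptive genes. Wide members were seen at 1 mesenchyme gene (5.56%) and 1 blood and immune gene (6.25%), against 4.31% of all genes. The other 3 marker lists had none, and at so few genes this is little apart from that background.

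On promoters members were few. Of 21044 promoter windows of 17273 genes, each from 250 bases before to 50 after a RefSeq start site, 9204 had a peak of E16 small intestine and 94, of 91 genes, overlapped a member (background 0.527% of genes). Absorptive genes had 9 of 54 genes with a window (16.7%): Abcg5, Abcg8, Npc1l1, Mep1a, Sis, Slc3a1, Slc7a9, Slc26a3 and Slc51b. Nr1i3, Abcc2 and S100b, a neural marker, were the other listed genes. The member lay across the start site at Abcg8, Mep1a, Npc1l1, Nr1i3, Sis and 1 start of Slc7a9, and before it in the others. Some of these start sites lie inside the gene. The member was centred 6.78 kb past the outer start at Abcg8, 4.81 kb at Slc26a3, 1.35 kb at Mep1a and 0.358 kb at Slc7a9. Mep1a makes a brush border protease, Slc7a9 the partner subunit of Slc3a1 in the cystine carrier, and Slc51b a subunit of the bile acid exporter. The cystine carrier therefore had a member at the promoters of both of its subunits. Peaks of other libraries were not far from some of these members. The nearest lay 580 bp away at Slc3a1, 360 bp at Slc7a9, 220 bp at Slc51b and 204 bp at Abcg5 and Abcg8. With no peak of another library allowed within 500 bp, 5 of the 9 absorptive genes kept a member on the promoter. Beside the 12 listed genes 79 unlisted ones had a member at a promoter, and those named here were picked after their values had been seen. Some act in gut or metabolism: Muc13, a surface mucin (159 bp), Amn, the partner of Cubn in vitamin B12 uptake (111 bp), Gpam, which starts triglyceride synthesis (112 bp), Rdh9, a retinol dehydrogenase (338 bp), Dao, an amino acid oxidase (354 bp), and Ugt1a9, a conjugating enzyme (165 bp). Others do not, such as the neuronal regulators Neurog2 and Dlx1, the hair keratin partner Krtap24-1 and the cytokine Il1a.

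**Figure D5:**
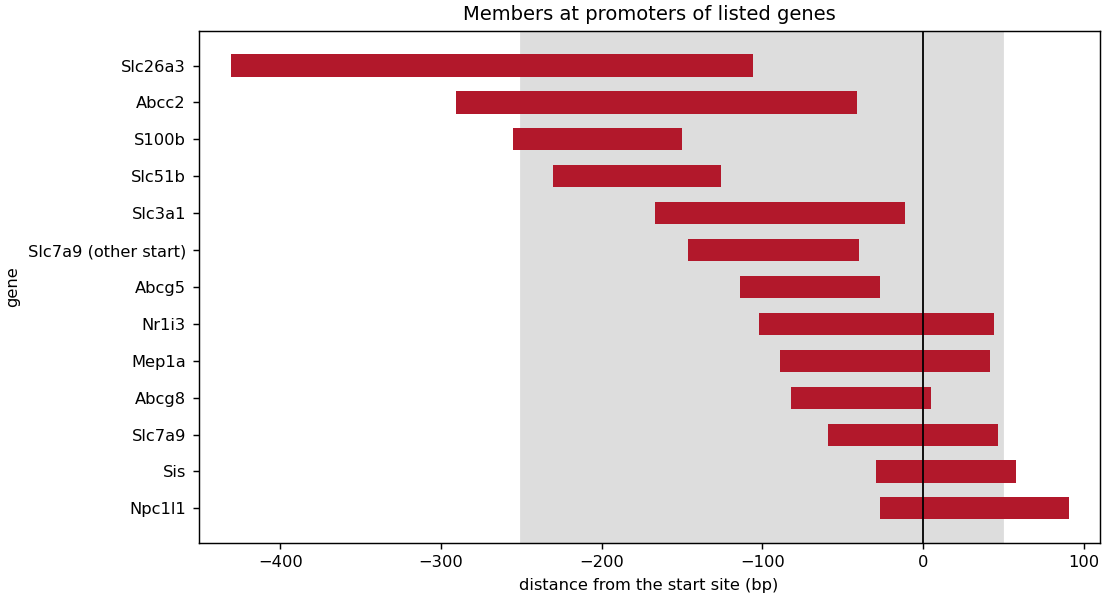
Position of members at promoters of genes from the 18 lists, by distance from the start site in bp (x axis, 0 is the start site), with 1 bar per gene and start site. The grey band is the window from 250 bases before to 50 after; the member at Slc26a3 runs from -431 to -107, and that at Npc1l1 from -27 to past the band.

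The promoters with a member were poor in CpG. Over the 250 bases before the start, their median GC content was 50.2% and the median ratio of observed to expected CpG 0.287. In promoters under other E16 small intestine peaks these were 60.8% and 0.769, and in promoters with no peak in any list 46.0% and 0.180. Promoters with a region of colon alone (52% and 0.306), hindstomach alone (50.8% and 0.358) or E13 intestine alone (53.4% and 0.364) lay near those with a member. In all 20 motifs were searched, and a part of them is printed. The HNF4 motif CAAAGTCCA was in 4 of the 94 promoters with a member, 4.26% (1.67 to 10.4), against 0.394% of all promoters and 0.448% of those with no peak. These 4 were Slc3a1, Muc13, Btnl2, an immune regulator of the intestinal surface, and Rab11fip3, which acts in vesicle traffic. Promoters that overlap a region of colon alone had 0 of 70 (a count of 0 allows up to 4.29%), of hindstomach alone 1 of 82 and of E13 intestine alone 1 of 122, and their intervals overlap that of the members. The shorter CAAAGTC, which is part of that motif, was in 8.51% (4.38 to 15.9), against 3.67% of all promoters and 8.54% of those with a region of hindstomach alone.

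For other motifs the promoters with no peak, which are also low in GC, lay closer to those with a member. AGATAA, which GATA factors bind, was in 20.2% (13.3 to 29.4) of promoters with a member and 8.84% of all, but in 15.3% of those with no peak. The CDX motif TTTATNG was in 14.9%, 8.71% and 14.0% in the same order, and in 20% of promoters with a region of colon alone. The AP1 motif TGANTCA was in 15.96% (9.92 to 24.7), 6.17% and 9.10%, and in 23.2% of promoters with a region of hindstomach alone. AGGAAG, the core bound by ETS factors such as ELF3 of the intestinal epithelium, was in 46.8% (37.0 to 56.8), 28.7% and 32.2%, and in 37.1% of promoters with a region of colon alone and 33.6% with one of E13 intestine alone. The longer ETS motif CCGGAAG went the other way, with 2.13%, 9.07% and 1.75%. The GC-rich motif GGGCGGG of KLF and SP factors was in 11.7%, 31.4% and 6.95%. All motifs were searched on both strands, and windows of 1 gene or of a divergent pair share bases.

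Some members lay beside microRNA genes. Of 1005 RefSeq hairpins 18 had a member within 1 kb, where the other libraries had between 12 and 72 such hairpins with a region of their own, and hindstomach also had 18. The 18 included Mir206, known from muscle, Mir34a, Mir196b and Mir103-1. The 2 clusters described next were picked after the values had been seen. Mir194-1 and Mir215, neighbours on chromosome 1 whose products are abundant in enterocytes, shared a member of 163 bp at chr1:185313907-185314070. It began 215 bp from the Mir215 hairpin and 522 bp from Mir194-1, and no other library had a peak in reach. Mir200a, Mir200b and Mir429, whose products keep epithelial identity, shared a member of 317 bp at chr4:156054715-156055032 that covered the Mir200a hairpin. The member lay 649 bp from the Mir200b hairpin and 728 bp from that of Mir429. A region of forestomach and hindstomach stood between the member and Mir429, and so was closer to Mir429 than the member was. The mature sequences from RefSeq are shown with the seed, bases 2 to 8, in capitals, to set these clusters side by side.
miR-194-5p: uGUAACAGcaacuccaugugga
miR-215-5p: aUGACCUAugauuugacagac
miR-200a-3p: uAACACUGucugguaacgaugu
miR-200b-3p: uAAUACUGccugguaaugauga
miR-429-3p: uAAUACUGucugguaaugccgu
miR-200b-3p and miR-429-3p have the same seed, AAUACUG, and that of miR-200a-3p is AACACUG. The seeds of miR-194-5p and miR-215-5p differ from these and from each other.

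Genes with the most members were long. Auts2, a regulator of neuronal development, had 19 members, Rbfox1, a splicing factor, 18, and the synaptic gene Cntnap2 and Nckap5 17 each. The 12 genes with most members had 14 to 19 and a median length of 1122.52 kb. Colon had more regions of its own than E16 small intestine at 11 of these 12, with 32 at Auts2 and 34 at Rbfox1, and Foxp1, a transcription factor of gut and lung, was the exception with 16 members and 15 colon regions.

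Genes where members exceeded the regions of every other library held alone numbered 1049 (background 4.85%), and 10 of the 68 absorptive genes were among them. The largest excess was at Sall4, a factor of early embryonic cells, with 7 members of 10 regions and at most 1 region of any other library alone, but its widest member was 135 bp. Hs3st1, which sulfates heparan, had 7, Lats2, a Hippo pathway kinase, 6, Lpin2, a phosphatidate phosphatase of fat synthesis, 6 and Mttp 5. Ces2e, an intestinal carboxylesterase, had 5 members of 6 regions, 1 at a gene end. Akr1d1, which reduces steroids and bile acid precursors, had 5 of 8. Rars, a housekeeping aminoacyl-tRNA synthetase, had 4 members of 5 regions. Mttp was the only absorptive gene among the 12 with the largest excess.

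The widest members lay at Egr1, an immediate early gene (747 bp, 328 bp from one end of the gene), Clec2e, a lectin-like gene (638 bp), Tet2, a DNA demethylase (599 bp), Abcc2 (593 bp) and Tnip1, an inhibitor of NF-kB signals (561 bp). Each had at least 399 bp to the nearest peak of another library. By place, the densest 100 kb window had 9 members among 13 regions, at Lmntd1 on chromosome 6 (145343624 to 145440581), with a median width of 87 bp. On chromosome 3 (129411756 to 129508339), by Elovl6, a fatty acid elongase, and the brush border gene Enpep, all 8 regions of E16 small intestine were members, of at most 180 bp, while colon had 5 regions of its own there.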

How the data were processed

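The authors deposited, per library, a list of peaks in 3 columns (chromosome, start, end), so the unit is other than a signal, with no score or read count. Tools named in the submitters' processing notes are MACS2, Bowtie2 and cutadapt, with GRCm38 (mm10) as the build. The sources used here do not give versions, thresholds or pooling. From these positions, peaks were merged (overlap of 1 bp or more) and regions given to the nearest of 21627 RefSeq protein-coding gene bodies (GRCm38.p6) within 100 kb. Promoters came from RefSeq windows, and those on chromosome 18 were not analysed here. The members and the 18 lists (314 genes, all found) were chosen with earlier results of these data known. Named genes are the 12 with most members, the 12 with the largest excess over any other library's own regions (predicted genes left out), up to 5 per list, absorptive, transcription factor and nuclear receptor genes with a member at a gene end, Cdx2, Sox2, and the genes at the 5 widest members and 5 densest windows; the text prints a part. Others named for width, promoters or a lack of members were chosen after their values were seen. Merging and assignment were tested on simulated data. Planned motif counts in all members were not made, for want of a genome sequence. The software was pandas 2.3.3, numpy 2.4.6, scipy 1.17.1 and matplotlib 3.10.9 on Python 3.11.15. With 1 library per group no test was made.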

Additional observations from a re-analysis of the deposited data

Results flagged for a closer look

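Chromosome Y was left out of the regions. There, 175 regions were found in E16 small intestine alone, of 719 peaks of that library. Colon had 446 of its own among 1111 peaks, hindstomach 146 of 639, forestomach 127 of 565, E13 stomach 58 of 178, E13 intestine 49 of 187 and Sox2 KO stomach 17 of 69. These are values of data outside the members, and no comparison was made on them.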

How the results depend on the processing

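The count of members was 5044 with the wider part of the E16 small intestine peaks only, 1176 from 200 bp on and 33382 without the colon list. The same settings gave gene-end shares of 5.61%, 6.55% and 3.36% and median widths of 161, 235 and 101 bp. The gene-end share was 3.68% and 2.69% where a peak within 100 or 500 bp also counted as shared, 4.85% where 50% overlap was needed (width 102 bp), 4.52% without Sox2 KO, 5.90% with E16 wild-type lists only (99 bp), and 2.17% and 6.94% with gene-end windows of 500 bp and 2 kb. Median width was 114.5 bp with the widest peaks at equal list length, 98 bp without both E13 lists and 98 bp without hindstomach. Genes with a member numbered 3351 (wider part) and 932 (200 bp), absorptive genes 28 and 16. Absorptive genes with a member on the promoter numbered 5 with 500 bp to other peaks, 3 (wider part) and 1 (200 bp). In every setting run, the share of absorptive genes with a member was above that of all genes, for example 41.2% against 15.5% (wider part), 23.5% against 4.31% (200 bp) and 67.6% against 30.7% (gene bodies within 10 kb). Gene length bears on this share of genes, and the share of single-library regions, which is less bound to length, was not rerun. The direction of the gene-end comparison was not rerun either. Of the 137 other counts, for lists and single genes, 135 stayed within 1.5 times without Sox2 KO, 96 without colon, 88 with gene bodies within 10 kb, 19 with the wider part and 5 from 200 bp on. No paired analysis was possible because each group is 1 library. Alternatives by peak score and by motif window were not run, since the lists hold no score and no genome was used. The 200 bp limit and leaving out single lists were added after the data were seen. Depth is unknown, so a closed region and a missed call cannot be told apart.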
